A study of Mus musculus with 6 samples.

Results

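Meg3, Rian, Mirg, Malat1, Neat1, Miat, Snhg11, Peg13, Kcnq1ot1 and H19 are long noncoding RNAs, most of them retained in the nucleus or transcribed from imprinted loci. They were taken by symbol from a table of FPKM (fragments per kilobase of transcript, scaled to the fragments of the library) for 55335 mouse genes; each of the 10 symbols matched 1 row. The study asked what Brpf1, a chromatin reader and scaffold of histone acetyltransferase complexes, does in GABAergic interneurons of the medial ganglionic eminence, the embryonic source of many cortical interneurons. The 3 libraries called AAV-scramble came from cells given a control virus and the 3 called AAV-shbrpf1 from cells given the virus named for a short hairpin RNA against Brpf1. All 6 held total RNA of primary cells from the brain of wild-type C57BL/6 embryos at embryonic day 14.5, infected with adeno-associated virus for 12 hours, and were read as paired ends. Each group had replicates 1, 2 and 3; the labels tell neither what a number stands for nor whether replicates were separate cultures or animals, and the spread behind each p-value is that of these libraries, which may be technical.

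Imprinted genes are expressed mainly from the copy inherited from one parent. Meg3, Rian and Mirg lie in the Dlk1-Dio3 domain and are transcribed in the same direction from the maternal copy; Rian is a host of C/D small nucleolar RNAs and microRNAs, and Mirg of a dense microRNA cluster. H19 is the maternal RNA of the Igf2 locus, Kcnq1ot1 the paternal antisense RNA that silences neighbours at the Kcnq1 locus, and Peg13 a paternal RNA from an intron of Trappc9. Malat1 sits in nuclear speckles, the sites where splicing factors gather, Neat1 is the RNA scaffold of paraspeckles, Miat (Gomafu) forms a separate nuclear domain in neurons, and Snhg11 is a small nucleolar RNA host abundant in neurons.

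The libraries held an estimated 13.1 to 21.1 M fragments. Brpf1 was at 3.29, 5.45 and 4.84 FPKM in AAV-scramble 1, 2 and 3 and at 3.13, 4.58 and 3.78 in AAV-shbrpf1 1, 2 and 3. The groups overlapped, and its log2 difference was -0.18 (SE 0.26, limma adjusted p = 1). Within each pair of equal replicate number Brpf1 was lower with AAV-shbrpf1. With the replicate number in the model the difference was the same, its SE was 0.10 and it did not pass. The label of the cells was set against its markers: the summed FPKM of 10 interneuron markers, Gad1, Gad2 and Lhx6 among them, ran from 659 to 1129, while 5 markers of glutamatergic neurons summed to at most 0.928 and 6 of microglia to at most 0.731. Markers of glia and progenitors summed to 528 to 1133, so these cells were not neurons alone. In bulk RNA, fewer cells of a type and less RNA per cell cannot be told apart.

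The Meg3-Rian-Mirg cluster lay on the plus strand of chromosome 12 (build GRCm38), with Meg3 at chr12:109541001-109571726, Rian at chr12:109603808-109661716 and Mirg at chr12:109729764-109749460. From the start of Meg3 to the end of Mirg it spanned 208 kb, with gaps of 32.1 kb and 68.0 kb. The RefSeq promoter windows (GRCm38.p6, plus strand) are shown because these 3 RNAs are transcribed one after the other. Each window runs from 250 bases before to 50 after the start. Any part of the windows in the differences between replicates was not tested. Capitals mark matches, on either strand, to a TATA box core spelled TATAAA, to the box named for its letters CCAAT, and to a cyclic AMP response element spelled TGACGTCA; a GC box core spelled GGGCGG was searched too.
Meg3 promoter: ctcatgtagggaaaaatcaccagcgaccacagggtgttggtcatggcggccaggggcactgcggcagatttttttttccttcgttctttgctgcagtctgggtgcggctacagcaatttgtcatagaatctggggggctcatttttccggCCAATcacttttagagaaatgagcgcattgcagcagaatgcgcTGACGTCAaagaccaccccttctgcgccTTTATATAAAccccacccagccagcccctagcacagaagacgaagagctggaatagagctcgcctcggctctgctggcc
Rian promoter: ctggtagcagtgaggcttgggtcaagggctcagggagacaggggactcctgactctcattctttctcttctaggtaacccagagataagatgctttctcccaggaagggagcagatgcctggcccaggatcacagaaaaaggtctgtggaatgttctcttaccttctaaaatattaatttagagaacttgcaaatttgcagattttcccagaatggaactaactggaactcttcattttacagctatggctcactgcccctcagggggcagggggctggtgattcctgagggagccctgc
Mirg promoter: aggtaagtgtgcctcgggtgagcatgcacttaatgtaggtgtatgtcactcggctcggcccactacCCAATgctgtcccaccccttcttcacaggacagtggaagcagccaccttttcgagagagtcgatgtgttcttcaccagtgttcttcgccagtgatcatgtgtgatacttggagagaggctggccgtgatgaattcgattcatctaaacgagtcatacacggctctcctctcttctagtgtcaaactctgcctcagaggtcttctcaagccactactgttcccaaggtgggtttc
This Meg3 window, at chr12:109540746-109541045, is 1 of 2 that RefSeq gives for the gene and held the CCAAT box at -100, the cyclic AMP response element at -57, the TATA box core on opposite strands at -29 and -25, where both matches overlap, and 13 CpG (positions give the first base of the match, counted back from the start). The other Meg3 window, at chr12:109545148-109545447, held none of the 4 motifs and 1 CpG. The response element was in 1.79% of 32851 promoters, the TATA box core in 13.6%, the CCAAT box in 37.4% and the GC box core in 35.7%. The Rian window, at chr12:109603695-109603994, held none of the 4 motifs and 0 CpG, where the median promoter held 7 and 5.43% held as few as Rian. The Mirg window, at chr12:109734731-109735030, held CCAAT at -184 and 10 CpG. This window lies within the Mirg of the deposited table and covers miR-668-5p, miR-668-3p and miR-485-3p, microRNAs hosted by Mirg. Its CCAAT match begins on the last base of miR-668-3p, so these letters may not be those of a promoter of the whole Mirg. A match describes letters only and names no bound factor.

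The microRNAs inside these RNAs were taken from RefSeq (GRCm38.p6). 37 mature microRNAs of 20 genes lay in 4 of the long RNAs: 26 mature forms of 14 genes in Mirg, 6 of 3 genes in Rian, 3 of 2 genes in Meg3 and 2 of 1 gene in H19. The forms below are shown to make the cargo of the cluster visible, with the seed, bases 2 to 8, in capitals; miR-770 lies in Meg3, miR-341 and miR-370 in Rian and the next 7 in Mirg, followed by miR-675 of H19.
miR-770-5p: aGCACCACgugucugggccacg
miR-341-3p: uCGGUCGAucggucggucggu
miR-370-3p: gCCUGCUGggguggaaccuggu
miR-382-5p: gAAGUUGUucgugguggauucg
miR-134-5p: uGUGACUGguugaccagagggg
miR-485-3p: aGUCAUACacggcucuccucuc
miR-453: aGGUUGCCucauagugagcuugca
miR-496a-5p: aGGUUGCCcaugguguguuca
miR-377-3p: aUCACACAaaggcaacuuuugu
miR-410-3p: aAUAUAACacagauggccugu
miR-675-5p: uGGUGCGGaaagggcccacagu
Of the 37, miR-453 and miR-496a-5p were the only pair to share a seed, GGUUGCC. The table listed the precursor genes of the cluster at low FPKM: the highest was 1.45 among 15 miRNA genes inside Mirg and 0.249 among 2 inside Meg3, whereas Rian held 4 miRNA genes at up to 8.88 FPKM and 13 small nucleolar RNA genes at up to 10.6 FPKM. The most abundant precursors were Mir341 at 6.55, 3.20 and 2.05 FPKM in AAV-scramble 1 to 3 and 8.88, 1.12 and 2.59 in AAV-shbrpf1 1 to 3, and Mir1188 at 5.92, 2.47 and 1.76 and 7.43, 0 and 3.07. The most abundant small nucleolar RNA gene, Gm24564, was at 10.6, 1.89 and 0.709 and 9.23, 0 and 1.24 FPKM. Mir341 and Gm24564 were highest in both libraries numbered 1 and lowest in AAV-shbrpf1 2. Mir341, Mir1188 and Gm24564 lie in introns of Rian, and mature microRNAs were not measured.

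Meg3 was the most abundant of the 10 RNAs, with a mean of 114 FPKM over the 6 libraries (rank 253 of 31057 genes above 0). In FPKM, which is per length, it was followed by Malat1 (96.2), Snhg11 (68.4), Peg13 (61.0), Miat (24.7) and Rian (15.3). H19 (1.05), Mirg (0.980), Neat1 (0.383) and Kcnq1ot1 (0.218) were near or below 1 FPKM. Neighbours in this order had overlapping ranges over the libraries, except that Peg13 lay above Miat and Rian above H19 in every library. Neat1 and Kcnq1ot1 did not reach a mean of 1 FPKM in either group, which left 8 of the 10 for the tests. The lowest library held an estimated 16.8 fragments of Mirg, 18.7 of Neat1, 24.1 of H19 and 68.1 of Kcnq1ot1, against 6868 of Meg3.

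**Figure D1:**
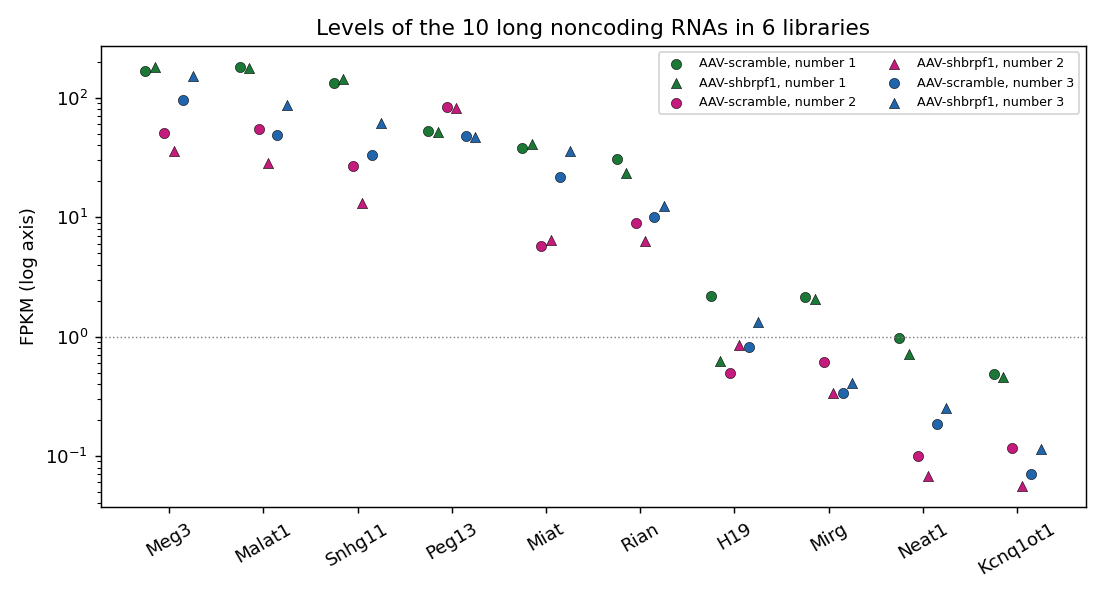
FPKM of the 10 RNAs on a log axis, ordered by mean; each point is 1 library, circles AAV-scramble and triangles AAV-shbrpf1, coloured by replicate number, and the dotted line is 1 FPKM. Both libraries numbered 1 are above the other 4 for 8 RNAs, and Peg13 is highest in both numbered 2.

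The RNAs of the cluster differed between replicate numbers, and all 3 were highest in number 1. Meg3 was at 168.6, 50.7 and 95.5 FPKM in AAV-scramble 1, 2 and 3 and at 181.4, 36.0 and 151.2 in AAV-shbrpf1 1, 2 and 3. Both libraries numbered 1 were highest and both numbered 2 lowest, with 4.03 times more FPKM in number 1 than in number 2. On the log2(FPKM + 1) scale the difference between numbers 1 and 2 was 2.01 (SE 0.26, limma adjusted p = 0.0019) and that between 2 and 3 was -1.47 (SE 0.26, limma adjusted p = 0.0099), and 1 minus 3 was 0.54 (SE 0.26, limma adjusted p = 0.163). Rian was at 30.6, 8.999 and 10.1 FPKM in AAV-scramble 1 to 3 and at 23.4, 6.26 and 12.5 in AAV-shbrpf1 1 to 3. It was 3.54 times higher in number 1 than in 2 and 2.39 times higher than in 3, and both differences passed, at 1.71 (SE 0.20, limma adjusted p = 0.0015) and 1.18 (SE 0.20, limma adjusted p = 0.013) log2 units. Mirg was at 2.14, 0.610 and 0.335 FPKM and at 2.04, 0.336 and 0.409, highest in both libraries numbered 1. It was 4.43 times higher in number 1 than in 2 and 5.63 times higher than in 3, on as few as 16.8 estimated fragments in a library. On the log2(FPKM + 1) scale, where differences of scarce RNAs appear smaller, 1 minus 2 was 1.08 (SE 0.17, limma adjusted p = 0.0031) and 1 minus 3 was 1.17 (SE 0.17, limma adjusted p = 0.0098).

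The cluster did not keep a fixed ratio. Rian stood at 18.2%, 17.8% and 10.6% of the FPKM of Meg3 in AAV-scramble 1 to 3 and at 12.9%, 17.4% and 8.27% in AAV-shbrpf1 1 to 3, a mean of 14.2% ± 4.20 (SD, n = 6). Mirg stood at 1.27%, 1.20% and 0.351% and at 1.13%, 0.931% and 0.271%, a mean of 0.859% ± 0.441 (SD, n = 6). Both ratios were lowest in the 2 libraries numbered 3, where Meg3 was at 2.84 times its level in number 2, Rian at 1.48 times and Mirg at 0.787 times; the ratios were not tested. The protein-coding genes expressed from the paternal copy were low: Dlk1, a Notch-related ligand, reached 0.391 FPKM, Rtl1, a retrotransposon-derived gene, 1.20 FPKM and Dio3, which inactivates thyroid hormone, 2.38 FPKM. Of the 8 paternal and flanking genes found in the table, 5 were tested and 4 passed the test of replicate number, 1 of them highest in number 1, where 69.4% of all genes passed and 34.2% passed and were highest in number 1. Dio3, in contrast to Meg3, was lower in number 1 than in number 2, a difference of -0.92 log2 units (SE 0.23, limma adjusted p = 0.017). With the trend of each library with GC content and length removed it stood at -0.18 and Meg3 at 1.98. Rtl1 and Dlk1, too low to be tested, had their lowest means in number 2, as Meg3 had. In numbers 1, 2 and 3 these means were 1.02, 0.340 and 1.01 FPKM for Rtl1 and 0.173, 0.116 and 0.389 for Dlk1.

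**Figure D2:**
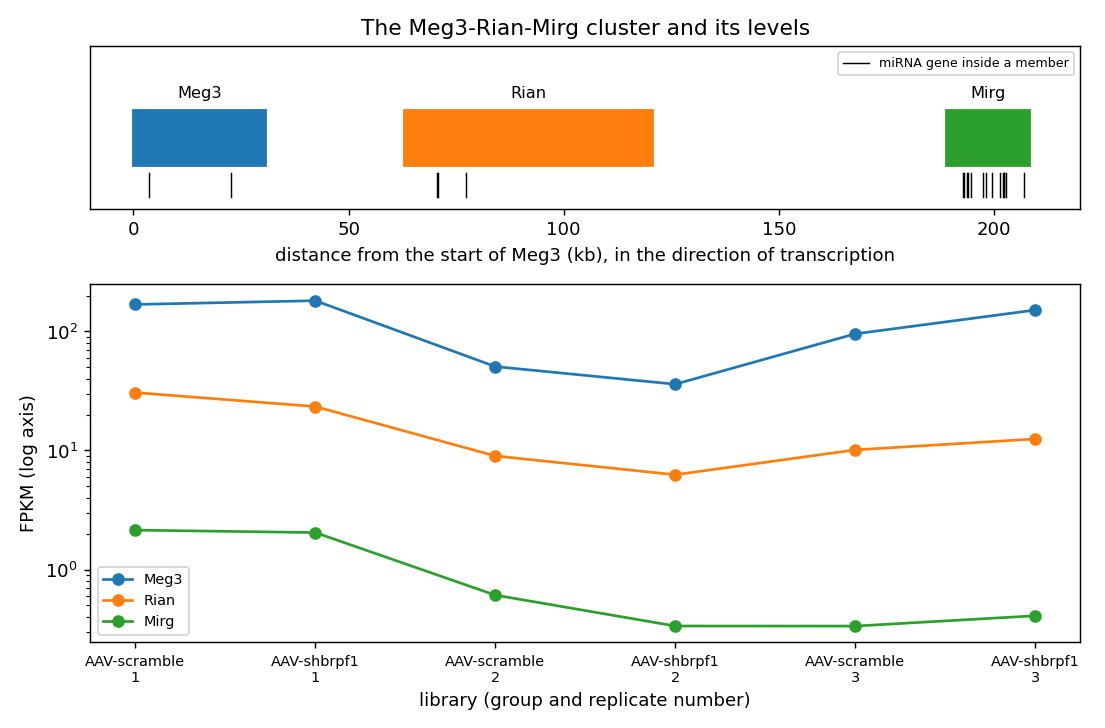
Above, the extent of Meg3, Rian and Mirg by distance in kb from the start of Meg3, with ticks for the microRNA genes inside them; below, their FPKM on a log axis in the 6 libraries, ordered by replicate number. All 3 fall from number 1 to number 2, and in number 3 Meg3 is closer to its level in number 1 than Rian and Mirg are.

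The RNAs of nuclear bodies and Snhg11 were likewise highest in number 1, and the mean of number 2 was the lowest for each. Malat1 was lower in AAV-scramble 3 than in AAV-scramble 2. The difference between 2 and 3 passed for Miat and not for Malat1 or Snhg11. Malat1 was at 180.02, 54.3 and 49.2 FPKM in AAV-scramble 1 to 3 and at 178.9, 28.7 and 86.5 in AAV-shbrpf1 1 to 3, so both libraries numbered 1 lay above all others; 1 minus 2 was 2.16 (SE 0.37, limma adjusted p = 0.0044) and 1 minus 3 was 1.45 (SE 0.37, limma adjusted p = 0.036). Neat1 was at 0.976, 0.0997 and 0.187 FPKM and at 0.716, 0.0685 and 0.253, 10.1 times higher in number 1 than in number 2 on few fragments and without a test in the main comparison. Miat was at 38.1, 5.76 and 21.7 FPKM and at 40.7, 6.44 and 35.8. Both libraries numbered 2 were far below the other 4, with 1 minus 2 at 2.51 (SE 0.17, limma adjusted p = 0.0010) and 2 minus 3 at -2.03 (SE 0.17, limma adjusted p = 0.0048). Snhg11 was at 133.5, 26.8 and 33.3 FPKM and at 142.4, 13.2 and 60.9, with 1 minus 2 at 2.80 (SE 0.40, limma adjusted p = 0.0024) and 1 minus 3 at 1.59 (SE 0.40, limma adjusted p = 0.034).

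RNA of genes that encode proteins of these bodies was measured too, while the proteins themselves were not. Of 14 genes for paraspeckle proteins 13 passed the test of replicate number (69.4% of all genes). Of these, 11 were highest in number 1 (34.2% of all genes). Cpsf6, which encodes a cleavage factor, was at 14.7, 4.61 and 6.81 FPKM in AAV-scramble and 14.0, 2.48 and 8.69 in AAV-shbrpf1. Of 20 genes for speckle and splicing proteins 19 passed, 16 of them highest in number 1. Luc7l3, which encodes a splicing factor, was at 24.1, 4.71 and 7.83 and at 28.8, 3.38 and 13.1. For these lists the median difference between numbers 1 and 2 was 1.09 and 1.42 log2 units, against 0.25 over all genes tested. With the GC and length trend removed these medians were 0.53 and 0.80, against 0.25.

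Peg13 ran against the others. It was at 52.7, 84.0 and 47.7 FPKM in AAV-scramble 1 to 3 and at 51.7, 82.6 and 47.4 in AAV-shbrpf1 1 to 3, so the 2 libraries numbered 2 were highest, 1.596 times the level in number 1. The log2 difference of 1 minus 2 was -0.66 (SE 0.090, limma adjusted p = 0.0021) and of 2 minus 3 0.80 (SE 0.090, limma adjusted p = 0.0051). Trappc9, a vesicle tethering factor whose intron holds Peg13 on the same strand, was highest in number 2 as well, at 5.91, 25.6 and 12.6 and at 6.38, 25.1 and 11.004 FPKM; how far reads of the pair were told apart is not stated. Of the 5 neighbours in the Peg13 list 4 passed (69.4% of all genes), and 1 of them was highest in number 2 (18.7%).

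Kcnq1ot1 and H19 were scarce. Kcnq1ot1 was at 0.487, 0.116 and 0.0706 FPKM in AAV-scramble 1 to 3 and at 0.463, 0.0559 and 0.115 in AAV-shbrpf1 1 to 3, highest in both libraries numbered 1. Kcnq1, which it overlaps on the other strand, reached 0.0259 FPKM. Of 6 tested neighbours in the domain 3 passed the test of replicate number (69.4% of all genes). H19 was at 2.19, 0.4996 and 0.813 FPKM and at 0.627, 0.849 and 1.32, the only tested RNA of the 10 without a call (limma F test adjusted p = 0.501), with its highest value in AAV-scramble 1, while AAV-shbrpf1 1 was below all but 1 of the others. Igf2, the growth factor of the same locus, was at 7.57, 0.0083 and 0.0175 FPKM and at 2.22, 0 and 0.0540. Mesenchymal markers were high in the same 2 libraries. Of 10 listed, 9 were tested and 8 were called and highest in number 1 (34.2% of all genes). Acta2 was listed at 0 in 2 libraries. The summed FPKM of the markers was 70.3, 2.25 and 3.40 in AAV-scramble and 45.3, 2.57 and 3.16 in AAV-shbrpf1. Their part in the values of H19 and Igf2 was not tested.

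In all, 7 of the 8 RNAs tested passed the limma F test of replicate number at an adjusted p under 0.05, where 69.4% of 12792 genes did. 6 were called and highest in number 1, against 34.2% of all genes, Peg13 was called and highest in number 2 (18.7% of all genes), and 5 were called and lowest in number 2 (41.8%). The difference between numbers 1 and 2 reached 1 log2 unit in 6 of 8 (19.6% of all genes) and 2 units in 4 of 8, Meg3, Malat1, Miat and Snhg11, where 0.883% of all genes did. These 4 averaged 24.7 to 114 FPKM, while 7213 of the 12792 genes reached a mean of 5 FPKM in either group. On log2(FPKM + 1) a scarce gene can hardly reach 2 units, and the shares are not matched by level. The count of 2 units went to 2 of 8, Miat and Snhg11, without AAV-shbrpf1 2 (Meg3 1.58, Malat1 1.51), under rescaling by median ratio (Meg3 1.71, Malat1 1.86) and with the GC and length trend removed (Meg3 1.98, Malat1 1.41), and to 3 of 8 without AAV-shbrpf1 1, where Meg3 was at 1.998. The pairwise difference between 1 and 2 was called upward in 6 of 8 (42.4% of all genes), that between 1 and 3 in 4 of 8 (15.8%), and 2 of 8, Meg3 and Miat, were called higher in 3 than in 2 (34.3%). Counting libraries, both numbered 1 stood above the other 4 in 8 of the 10 RNAs (33.7% of genes tested), both numbered 2 below in 5 of 10 (43.7%), and Peg13 was above in number 2 (20.3%). The median difference between 1 and 2 was 1.86 log2 units in the 8, 0.43 in 436 other long noncoding RNAs and 0.25 in all genes tested, sets that were not matched by level. Whether calls rested on single libraries cannot be told from lost calls, since fewer libraries are then left to estimate the spread. Malat1 did not pass without AAV-scramble 1 or without AAV-shbrpf1 1. Its 1 minus 2 was then 2.175 and 2.136, against 2.156 with all libraries. Mirg did not pass without AAV-shbrpf1 1, with 1 minus 2 at 1.053 against 1.077. Without both libraries numbered 1, which leaves numbers 2 and 3 to compare, 3 of the 7 that could be tested passed. Without both numbered 2, which leaves 1 and 3, Peg13 did not pass (limma F test adjusted p = 0.383), at a difference of 0.132.

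**Figure D3:**
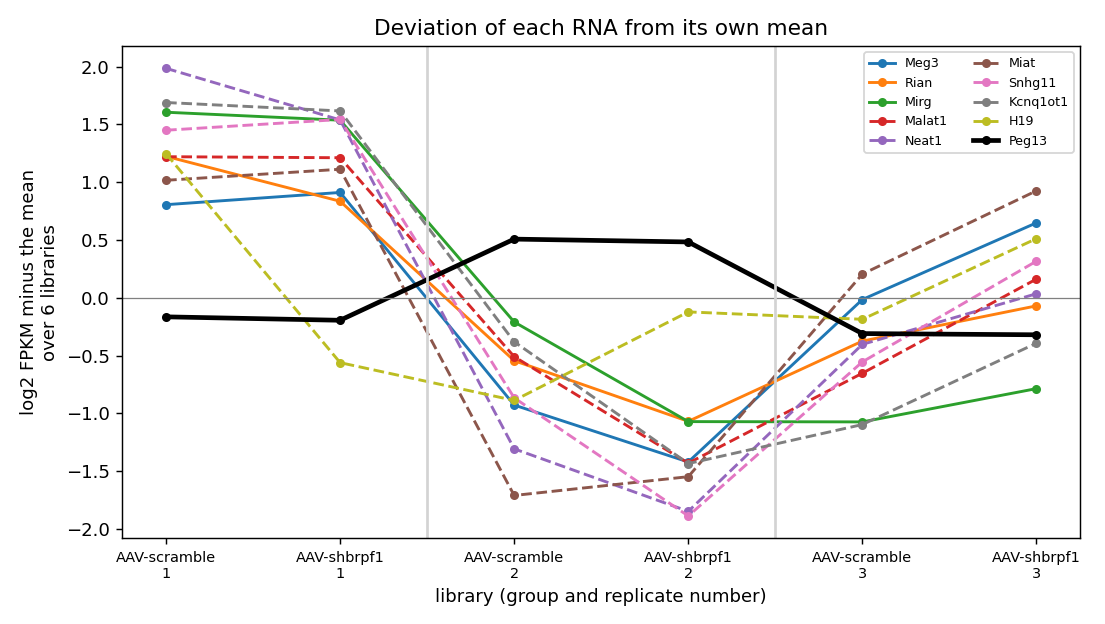
Log2 FPKM of each RNA minus its mean over the 6 libraries, with libraries ordered by replicate number; solid coloured lines are Meg3, Rian and Mirg and the black line is Peg13. Of the 10 lines, 8 start highest in both libraries numbered 1, Peg13 peaks in number 2 and H19 splits the 2 libraries numbered 1.

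Other properties of the libraries moved with the replicate number. Over all genes tested, the median difference between numbers 1 and 2 went from 1.18 log2 units in the quintile of genes with the lowest transcript GC content to -0.58 in the highest. Rian (35.8% GC) and Malat1 (42.5%) lay in the lowest quintile, Snhg11 (44.8%) in the second, Meg3 (49.2%) and Peg13 (51.6%) in the third, Mirg (51.9%) and Miat (55.1%) in the fourth and H19 (55.8%) in the highest. With the trend of each library with GC content and length removed, 7 of the 8 still passed (55.1% of all genes); the difference between 1 and 2 went from 1.71 to 0.67 for Rian and from 2.16 to 1.41 for Malat1, while Meg3 stood at 1.98, Snhg11 at 2.29, Mirg at 1.40, Miat at 3.16 and Peg13 at -0.34. The difference between 1 and 3 was then called upward in 7 of the 8 (13.5% of all genes), in place of 4, with Meg3 at 0.79 (limma adjusted p = 0.048), Miat at 0.86 (limma adjusted p = 0.019) and Peg13 at 0.32 (limma adjusted p = 0.028) added. Of 13 mitochondrially encoded genes all 13 passed (69.4% of all genes) and 11 were highest in number 1 (34.2%). Their summed FPKM was 56360, 16021 and 31708 in AAV-scramble and 60820, 11401 and 29736 in AAV-shbrpf1. Glial and progenitor markers summed to 1040, 562 and 1133 and to 1092, 528 and 1092, lowest in number 2. Singly, 9 of 10 were called (69.4% of all genes), 4 of them lowest in number 2 (41.8%), and none was at 0. Between numbers 1 and 2, 6 of these markers were called higher in 1 (42.4%) and 4 higher in 2 (22.9%). Interneuron markers summed to 659, 1054 and 1129 and to 695, 929 and 886. The part of cell makeup, RNA quality and library preparation in the swing of the 10 RNAs was not tested.

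**Figure D4:**
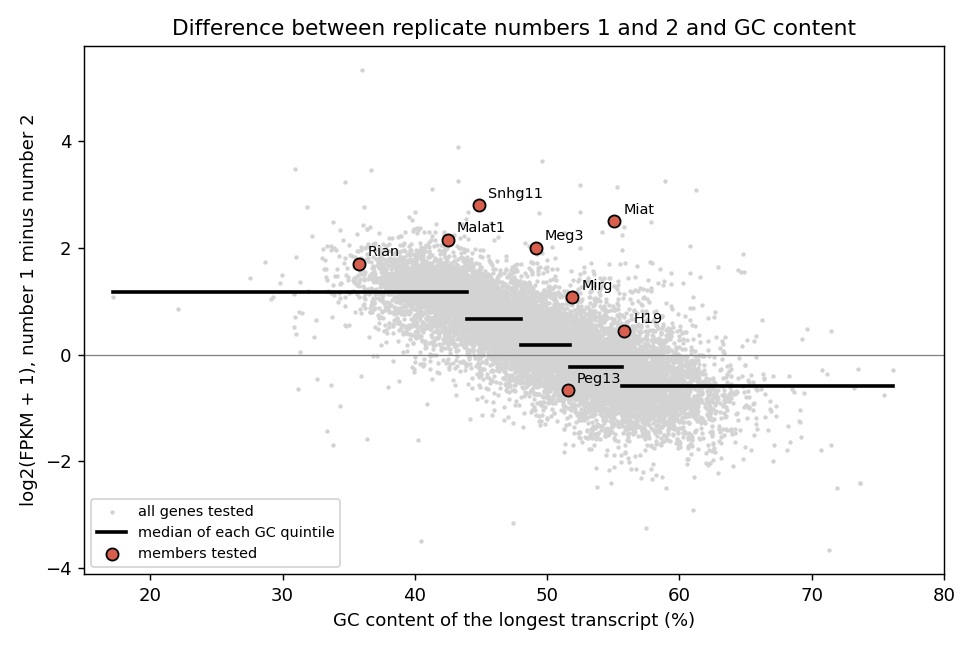
Difference between replicate numbers 1 and 2 in log2(FPKM + 1) against GC content of the longest transcript; grey points are all genes tested, black bars the median of each quintile of genes by GC content, red points the 8 RNAs tested. The bars fall from 1.18 to -0.58; Meg3, Miat and Snhg11 lie far above the bar of their quintile and Peg13 below its own.

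Between the viruses, none of the 8 RNAs tested passed (0 called; 0% of 12792 genes at a limma adjusted p under 0.05, with 23 genes at an unadjusted p under 0.05). All 10 had overlapping groups, where 1.07% of genes did not overlap. The log2 difference of AAV-shbrpf1 minus AAV-scramble was 0.09 for Meg3 (SE 0.69), -0.19 for Rian (SE 0.58), -0.08 for Mirg (SE 0.44), -0.03 for Malat1 (SE 0.74), 0.31 for Miat (SE 0.83), -0.01 for Snhg11 (SE 0.92), -0.02 for Peg13 (SE 0.33) and -0.11 for H19 (SE 0.33), each with a limma adjusted p of 1. Their median was -0.03, against -0.02 over all genes. Under the replicate block the spread shrank and still nothing passed (0% of all genes): the 95% interval was -0.43 to 0.62 for Meg3, -0.59 to 0.21 for Rian, -0.79 to 0.72 for Malat1, -0.04 to 0.65 for Miat and -0.21 to 0.16 for Peg13.

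Within replicate numbers the sign differed by pair. AAV-shbrpf1 2 was below AAV-scramble 2 in 8 of the 10 RNAs (59.7% of genes tested), and AAV-shbrpf1 3 above AAV-scramble 3 in 9 (52.4%); both held for 7 of the 10 and for 5 of the 8 tested (36.2%). Snhg11 was 50.7% lower in pair 2 and 82.9% higher in pair 3, Malat1 47.2% lower and 75.9% higher, and Meg3 28.9% lower and 58.4% higher. In pair 1 the same 3 RNAs differed by 6.66%, -0.617% and 7.60%. Miat was higher with AAV-shbrpf1 in 3 of 3 pairs, by 6.84%, 11.9% and 64.8%, and its difference under the block did not pass (limma unadjusted p = 0.070). Peg13 was steady within pairs, at -2.04%, -1.69% and -0.724%. H19 was 71.4% lower in pair 1 and 70.0% and 62.2% higher in pairs 2 and 3, on 24.1 to 71.5 estimated fragments per library. Over all genes the median difference also moved with GC content: from -0.24 in the quintile of lowest GC content to 0.02 in the highest in pair 2, and from 0.14 to -0.09 in pair 3. Its part in the pair differences of the 10 RNAs was not tested.

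**Figure D5:**
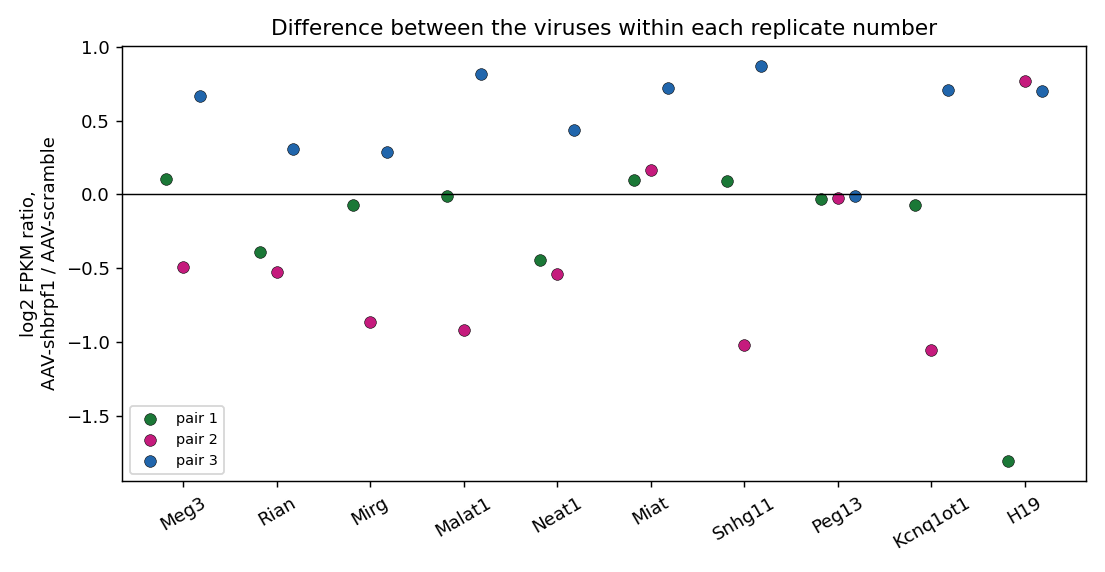
Log2 ratio of FPKM, AAV-shbrpf1 over AAV-scramble, in each of the 3 pairs of equal replicate number for each RNA; each point is 1 pair. Pair 2 lies below 0 for 8 RNAs and pair 3 above 0 for 9, and the 3 points of Peg13 lie near 0.

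The 10 RNAs were similar to one another to different degrees. Over the 6 libraries, log2(FPKM + 1) of Malat1 and Snhg11 correlated at a Pearson r of 0.992, Mirg and Kcnq1ot1 at 0.994, Rian and Neat1 at 0.984 and Meg3 and Miat at 0.977. Meg3 and Mirg, of the same cluster, were at 0.652. Peg13 was negative with all others, from -0.929 with Miat to -0.283 with Mirg. Mirg, Neat1 and Kcnq1ot1 averaged below 1 FPKM, so their r rests largely on both libraries numbered 1, where they were highest. The points behind each r are 6 libraries that moved together by replicate number and differ in depth and in their trend with GC content, so the values are descriptions. Among 2169 genes averaging 5 FPKM or more and ranging widely, the patterns most like Meg3 were those of Tfdp1 (r = 0.999), a cell cycle transcription factor partner, Elavl4 (0.998), a neuronal RNA-binding protein, and Rab30 (0.996). Those most like Malat1 were Ppargc1a (0.999), Pnisr (0.998) and Atp11b (0.996), and those most like Snhg11 were Glt8d1 (0.999), Lmbrd2 (0.998) and Bod1l (0.997). For the lists that follow, 69.4% of all genes tested passed for replicate number and 34.2% passed and were highest in number 1. Of other imprinted protein-coding genes, 19 of 24 tested passed for replicate number, 16 of them highest in number 1; Nap1l5 was at 200.1, 69.9 and 80.9 FPKM in AAV-scramble and 177.8, 51.02 and 89.3 in AAV-shbrpf1, whereas Nnat, lowest in number 1, was at 67.4, 225.7 and 339.7 and at 85.8, 260.8 and 259.8. Of other long noncoding and host RNAs 20 of 24 passed, 14 highest in number 1: Mir124a-1hg, host of a neuronal microRNA, was at 19.8, 3.96 and 7.27 and at 18.1, 2.40 and 9.94 FPKM, and Rpph1, the RNA of RNase P, ran the other way at 0.878, 6.08 and 1.05 and at 2.11, 12.2 and 0.546 FPKM. Of imprint and Polycomb regulators 13 of 14 passed and 3 were highest in number 1, Zfp57, a keeper of imprints, among them at 10.04, 2.86 and 3.65 and at 10.5, 2.197 and 5.26 FPKM.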

How the data were processed

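Total RNA of 6 mouse libraries was sequenced as paired ends, per the labels. The authors deposited 1 table with a value per gene and library; its header names no unit. The authors' values are taken as FPKM, estimated per gene and normalized to length and depth before they were deposited, since they carry decimals, have different sums per library and partly fall on steps set by transcript length. FastQC, StringTie and DESeq2 are named in the submitters' processing notes without versions or roles, and so is the build mm9, but 54899 of 55154 identifiers found in GENCODE M21 (GRCm38) have the start and end given in the table, so coordinates are those of GRCm38. No source used here gives the aligner, the filters or whether strand was used; without strand, overlapping genes cannot be told apart. Snhg11 is annotated as protein coding in GENCODE M21.

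Depth was estimated from the step between low FPKM values in 11673 single-exon genes; 40.1% to 44.0% of low values lay on whole steps (tolerance 0.03), so reads could not be recovered as whole numbers and no count test was run. Fragments per gene are estimates at the longest transcript and cover counting error only. The 12792 genes averaging 1 FPKM or more in either group were tested on log2(FPKM + 1) with limma 3.58.1 under R 4.3.3, two-sided and with a trend, and p-values were adjusted by Benjamini-Hochberg over all genes. On this scale a change in a low gene appears smaller than it is. The group was tested without covariates, and the replicate number with an F test and the group in the model; the scripts were tested on simulated data. Deviations from group means correlated at 0.866, 0.829 and 0.574 between libraries of equal number and at most at 0.002 otherwise, so libraries of equal number deviated together. Such deviations cancel out within a group, so the low values for unequal numbers follow in part from the high ones. What links libraries of equal number is not given. The 10 RNAs, the gene lists and the alternatives were chosen with earlier results of these data known. All 10 are named; per list the 2 called genes with the largest range of number means, or the most abundant, could be named, and genes alike to Meg3, Malat1 and Snhg11 by Pearson correlation; Neat1 was too low. Genes of the Dlk1-Dio3 domain, Igf2, Kcnq1 and Brpf1 were named for their locus or as the target. Promoters were found for 7 of the 10 and microRNAs by position, from RefSeq.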

Additional observations from a re-analysis of the deposited data

How the results depend on the processing

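No gene passed between the viruses in any of the alternatives run, which were a pseudocount of 0.1, other filters, 2 rescalings, each library or pair left out, the replicate block (0 genes; 280 at an unadjusted p under 0.05) and the block with the GC and length trend removed. Removing that trend was an alternative chosen after seeing the data. Leaving out 1 library leaves its replicate number in 1 group only, so that the unblocked difference also takes in the difference between numbers; it gave log2 differences from -0.34 to 0.82 for Meg3, -0.62 to 0.34 for Rian, -0.46 to 0.13 for Mirg, -0.64 to 0.66 for Malat1, -0.40 to 1.11 for Miat, -0.77 to 0.90 for Snhg11, -0.26 to 0.22 for Peg13 and -0.33 to 0.011 for H19. Without pair 3 Meg3 was at -0.19, without pair 2 Mirg was at 0.016, Malat1 at 0.40 and Snhg11 at 0.47, and without pair 1 H19 was at 0.33, while Miat stayed above 0 (0.12 to 0.42) and Peg13 below (-0.027 to -0.017) whichever pair was left out. Snhg11 went from -0.01 to 0.0097 under the block with the GC and length trend removed. For replicate number, genes called went from 8876 to 5493 with a mean of at least 5 FPKM, where fewer genes are tested, and to 3943 to 8885 when a library or a pair was left out (4793 without AAV-scramble 1, 5331 without AAV-shbrpf1 1, 3943 without both numbered 1 and 5137 without both numbered 2). Of the RNAs described here 3 to 7 were called in those. Without both numbered 1, 3 of 7 passed, where 3943 of 12385 genes did, and Rian (limma adjusted p = 0.114), Malat1 (0.222) and Snhg11 (0.088) did not. Without both numbered 2, which leaves numbers 1 and 3 to compare, Peg13 did not (0.383). Malat1 did not pass without AAV-scramble 1 or AAV-shbrpf1 1, nor Mirg without AAV-shbrpf1 1, while their differences between numbers 1 and 2 hardly moved. With fewer libraries left to estimate the spread, such a loss does not show that a call rested on the library left out. With no filter Malat1 missed the threshold (0.056), and Neat1 and Kcnq1ot1 were tested and passed. The median of all genes between numbers 1 and 2 was 0.25 as deposited, 0.41 rescaled to a fixed sum and 0.02 by median ratio, and the number with the highest mean stayed the same in the 7 called RNAs under all 3.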
